A study of Mus musculus with 3 samples.

Results

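The epidermal differentiation complex is the cluster of neighbouring genes that supplies most proteins of the cornified layer of the skin. Its members were taken by symbol, as every gene whose name starts with Sprr, Lce or S100a together with Lor, Ivl, Flg, Flg2, Hrnr, Rptn, Tchh, Tchhl1, Crnn and Crct1. The rule took 60 of the 32285 genes in the count tables, made up of 15 Sprr, 21 Lce and 14 S100a genes and the 10 genes named singly, and it used no measured value. Transcripts were counted by single-cell RNA sequencing of mouse back skin in 3 libraries, 1 per age, at P38 (postnatal day 38), 6 months and 12 months. All 3 libraries were labelled wild type and untreated, so every group was a control and age was the labelled difference. The methods of the study describe mice of the K14-H2BGFP line, in which the keratin 14 promoter drives a green fluorescent histone in epidermal and follicle keratinocytes, and a flow cytometry sort of epidermal and hair follicle cells to a fixed ratio. The labels describe dissociated total back skin and name no sort. The study's text describes the P38 cells as sorted for the green label, with few dermal cells, while the later ages held dermal cells as well. The P38 library came from male skin with follicles in synchronized catagen (the regressing stage), the 6 months library from female skin mostly in anagen (the growing stage), and the 12 months library from male skin in a mixture of telogen (rest) and anagen. Age, sex, hair cycle stage, cell sorting and library therefore cannot be told apart, and how many mice entered a library is not given in the sources used here.

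Keratinocytes of the interfollicular epidermis divide in the basal layer, enter the spinous layer when they switch on keratins 1 and 10, and become granular cells before they lose their nucleus and flatten into the cornified layer. During the last step transglutaminases cross-link a protein envelope beneath the cell membrane. Involucrin (Ivl) and the small proline-rich proteins (Sprr) are among its early building blocks, loricrin (Lor) is its most abundant late one, and the late cornified envelope proteins (Lce) are added to it late. The fused-type proteins filaggrin (Flg), filaggrin 2 (Flg2), hornerin (Hrnr), repetin (Rptn), trichohyalin (Tchh), trichohyalin-like 1 (Tchhl1) and cornulin (Crnn) join a calcium-binding S100 domain to long repeats. Filaggrin bundles keratin filaments, and trichohyalin hardens the inner root sheath and medulla of the hair. The S100a genes encode small calcium-binding proteins that act inside many cell types besides keratinocytes.

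The 60 members lay on mouse chromosome 3 between positions 90511034 and 93564643 of GRCm38 (GENCODE vM21), a span of 3.05 Mb. The 46 members outside the S100a family filled 92080271 to 93471980 (1.39 Mb) with no S100a gene among them. The S100a genes flanked that block, 12 below it and 2 (S100a11 and S100a10) above it, and the widest gap between neighbours was 1384.6 kb. Lor stood first in the inner block (92080271 to 92083142, minus strand), with Sprr1a at 92483952, Ivl at 92570902, Crct1 at 93014205, Flg at 93273523 and Tchh at 93442330 following it. Reads of near-identical copies cannot be separated with certainty. Sprr2a1 and Sprr2a2 shared 100% of the 31-base words in the last 400 bases of their transcripts, the end that this 3′ method reads, and Sprr2a3 shared 84.6% of them with another member. The Lce1 genes other than Lce1m shared 11.4 to 50.8%, and Lce1m shared 3.62%. Lor, Ivl, Crct1, Sprr1a, Sprr1b, the S100a genes and the fused-type genes shared 0% with any member, so their counts are the ones the results below lean on.

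The sequence upstream of the start was read for the 54 members that the RefSeq table holds (GRCm38.p6) and searched over 250 bases on both strands. TGANTCA, the letters that AP-1 dimers of Fos and Jun proteins are known to bind, stood upstream of 17 of 54 members (31.5%) and of 6.87% of the 27025 genes in that table. They were found for 9 of 14 Sprr genes, 7 of the 9 genes named singly, 1 of 11 S100a genes and 0 of 20 Lce genes. TATAAA, the TATA box letters, stood upstream of 22 members (40.7%) and of 13.0% of all genes, and in 19 members it lay 25 to 45 bases before the start. CCACCC, letters bound by Klf factors, was as frequent in members (29.6%) as in all genes (27.7%), and AACNGGTT, letters bound by Grhl factors, stood upstream of 2 members (3.70%) and 1.71% of all genes. No motif searched contains another, and a match is a description of these windows, not of binding. The 150 bases before the start are shown for 6 members that stand for the patterns described below: Lor, Flg and Lce1m of the granular cells, Sprr1a and Ivl of both cornifying epithelia, and S100a6 of the bulge. TGANTCA and TATAAA are in capitals, and each sequence ends at the base before the start.
Lor, chr3:92083143-92083292, minus strand: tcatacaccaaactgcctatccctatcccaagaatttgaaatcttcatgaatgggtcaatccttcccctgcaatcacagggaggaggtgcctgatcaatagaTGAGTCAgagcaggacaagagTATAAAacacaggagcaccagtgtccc
Flg, chr3:93273396-93273545, plus strand: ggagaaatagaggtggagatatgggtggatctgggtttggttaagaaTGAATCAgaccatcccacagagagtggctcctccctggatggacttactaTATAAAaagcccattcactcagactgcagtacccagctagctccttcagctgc
Lce1m, chr3:93019062-93019211, minus strand: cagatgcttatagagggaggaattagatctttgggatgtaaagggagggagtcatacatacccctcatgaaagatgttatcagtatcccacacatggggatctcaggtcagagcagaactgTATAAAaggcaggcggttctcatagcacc
Ivl, chr3:92573736-92573885, minus strand: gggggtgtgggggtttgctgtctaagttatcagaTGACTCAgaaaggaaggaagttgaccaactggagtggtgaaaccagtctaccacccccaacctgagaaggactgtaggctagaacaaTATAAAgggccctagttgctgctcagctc
Sprr1a, chr3:92485882-92486031, minus strand: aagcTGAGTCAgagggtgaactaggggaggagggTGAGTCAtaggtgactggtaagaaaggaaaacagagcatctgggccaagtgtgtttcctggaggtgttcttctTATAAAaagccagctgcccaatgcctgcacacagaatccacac
S100a6, chr3:90612744-90612893, plus strand: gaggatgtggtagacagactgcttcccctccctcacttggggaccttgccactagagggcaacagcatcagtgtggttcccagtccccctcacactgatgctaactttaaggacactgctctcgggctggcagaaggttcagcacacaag
Sprr1a held TGANTCA 2 times and Lor, Flg and Ivl 1 time each within these bases, while Lce1m held the TATA letters alone and S100a6 held neither.

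In the order P38, 6 months and 12 months, which is used for every set of 3 values below, the tables held 2397, 4761 and 5421 barcodes. The published cell filter, over 200 but below 5000 genes with less than 15% of UMIs (unique molecular identifiers, 1 per captured transcript) from mitochondria, left 2109, 3502 and 3240 cells, and for 6 months this was more than the study's methods give after the same filter. The kept cells of 6 months were the shallowest, with a median of 1019 UMIs beside 16170 at P38 and 11438.5 at 12 months. The 6 and 12 months libraries shared 81 kept barcodes (2.50% of the smaller set), and P38 shared 3 and 1 with them. The shared cells of 6 months held a median of 654 UMIs, and 4 of them fell among the granular cells described below. Leaving these 4 out took the granular cells of 6 months from 982781 to 895826 UMIs. The members' share of those UMIs moved from 9.95 to 7.93%. The granular cell of 6 months with most UMIs of members outside the S100a family held 84286 UMIs. It is therefore likely 1 of the 4, and leaving out shared barcodes is then nearly the same step as leaving out that cell.

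Cells were sorted into classes by marker genes that are not members, using Krt1, Krt10 and 5 other genes for spinous cells, Asprv1, Cdsn and 6 others for granular cells, Krt79 and 5 others for the upper follicle, Krt71 and 5 others for the inner root sheath and Cd34, Krt15 and 4 others for the bulge. A class is a range of a marker score and not a proven cell type, and the names below mean cells inside such a gate. The granular gate required the spinous score as well, so granular-gated cells held medians of 3.42, 3.05 and 3.38 for the spinous score and 0.762, 1.06 and 0.692 for the granular score. It held 48, 48 and 54 cells, of which 7, 6 and 10 lay within 10% of the cut, and 5, 6 and 11 cells lay as close outside it. The granular markers went with the labels apart from Krt2, which was at 4.63, 6.11 and 6.00 CPM (UMIs of the gene per 1000000 UMIs of the class). Asprv1, a protease that processes filaggrin, was at 1461, 7483 and 1650 CPM in these cells, and corneodesmosin (Cdsn), an adhesion protein of cornified cells, at 69.5, 1027 and 156 CPM, both highest at 6 months. Spinous-gated cells numbered 59, 51 and 145, upper-follicle-gated cells 198, 161 and 131 and bulge-gated cells 469, 177 and 166. Inner-root-sheath-gated cells numbered 0, 156 and 6, and those of 6 months held a median of 579 UMIs, with 72 of the 156 within 10% of the cut.

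The members made up 9.95% of all UMIs in granular-gated cells at 6 months (exact 95% interval 9.90 to 10.0, counting error only), against 1.26% at P38 and 1.72% at 12 months. This order depended on the gate. With a gate 1.5 times as strict the granular shares were 1.94, 1.65 and 0.402%, so that 6 months lay below P38. The inner root sheath share of 6 months was 2.35% under it. The stricter gate raised every cut, the spinous one included, so it did not select on the granular score alone. In the granular gate used elsewhere the median spinous score was lowest at 6 months, at 3.05 beside 3.42 and 3.38. In upper-follicle-gated cells the share was 1.70, 1.71 and 0.716%, in bulge-gated cells 1.28, 1.05 and 1.37%, in spinous-gated cells 0.858, 0.502 and 0.372%, and in inner-root-sheath-gated cells of 6 months 1.58%. The make-up differed between classes. Without the S100a genes the granular share was 0.840, 9.70 and 1.41%, whereas the bulge share fell to 0.0690, 0.0160 and 0.0233%. Cells gated as T cells, fibroblasts or Langerhans cells and macrophages should lack envelope proteins, and members outside the S100a family made up 0.0105, 0.00737 and 0.0534% of their UMIs at 6 months and 0.00168, 0.00204 and 0.00128% at 12 months. No cell of these kinds passed its gate at P38. The Langerhans and macrophage value of 6 months rested on few cells. There 1 cell held 91.1% of 168 Sprr1a UMIs, and 1 cell held 92% of 50 Crct1 UMIs. Of the 60 members 4 (Sprr3, Lce3a, Lce3b and Lce3f) had no UMI in any gated epithelial cell, and 41 had enough counts for the tests between classes, 8 Sprr, 10 Lce, 13 S100a and all 10 genes named singly.

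**Figure D1:**
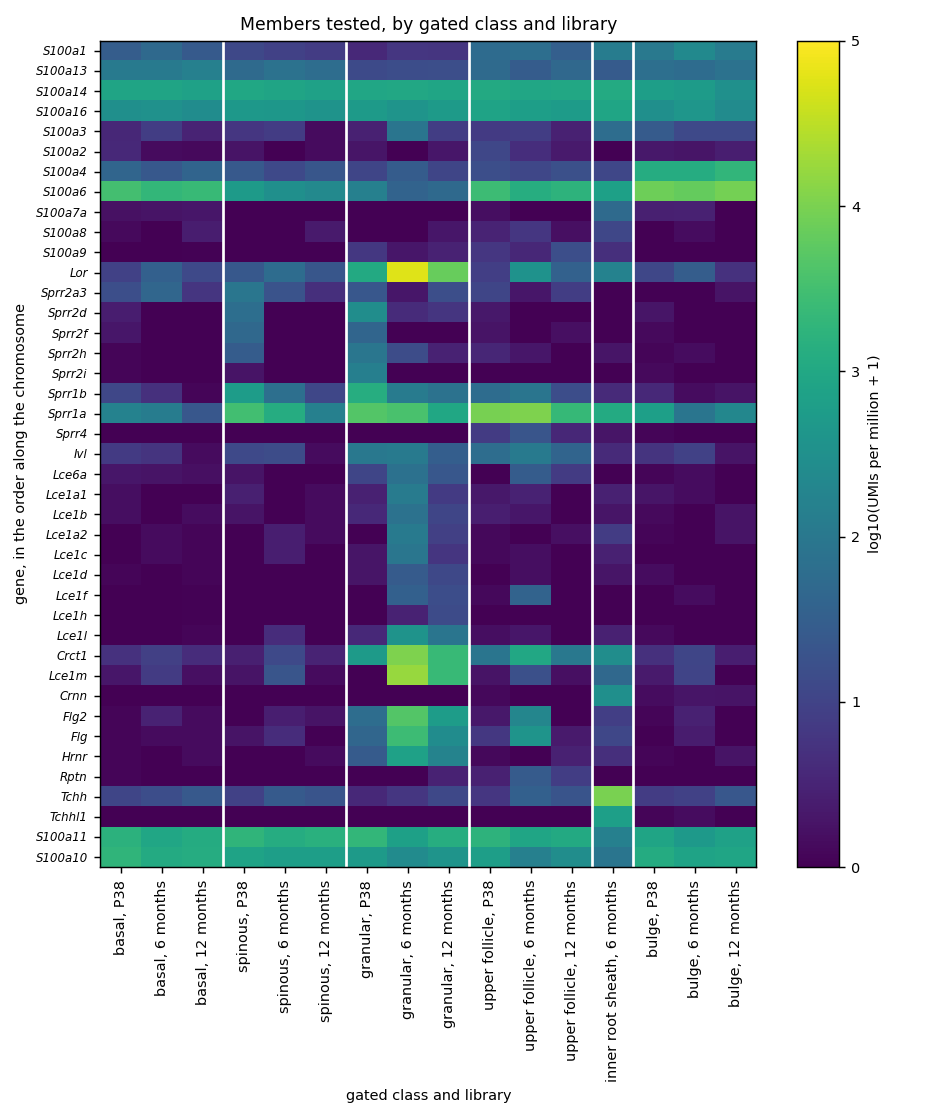
Level of the members in each gated class and library, as log10 of CPM plus 1 (colour), with members as rows in their order along chromosome 3 and class by library sums as columns. Rows such as S100a14, S100a16, S100a11 and S100a10 are green in nearly every column, and the Lor, Crct1, Lce1m, Flg2 and Flg rows are brightest in the granular column of 6 months, where Lor was at 56057 CPM.

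Granular-gated cells were compared with spinous-gated cells to see which members come on in the last living layer. Lor, Crct1, Flg, Flg2, Hrnr and 9 Lce genes were higher in granular-gated cells, and S100a6, S100a13 and S100a10 were lower. Of the 41 members tested, 18 were higher (5.25% of the 11584 genes tested were) and 3 were lower (2.35% of all genes). By family these were 9 of the 10 Lce genes tested (of 21 in all), 6 of 10 genes named singly and 3 of 8 Sprr genes tested (of 15), all higher, and 3 of 13 S100a genes tested (of 14), all lower. Most Lce genes tested passed the filter on low counts through granular-gated cells, so their count is partly set by the filter. The median log2 fold change was 5.33 over the 28 tested members outside the S100a family, to which the same holds, −0.14 over the S100a genes and −0.05 over all genes. The test was edgeR's quasi-likelihood test on UMI sums of 16 class and library combinations with the library as a term, and calls were made at an adjusted p (Benjamini-Hochberg over all genes tested) under 0.05.

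Loricrin was at 1069, 56057 and 7023 CPM in granular-gated cells and at 22.8, 58.1 and 20.4 CPM in spinous-gated cells. The log2 fold change was 8.41 ± 0.98 (SE, 3 libraries, adjusted p = 0.000207 in edgeR's quasi-likelihood test). No granular value overlapped a spinous one, and the 6 months value stood far above the other 2 granular values. Crct1, a cysteine-rich protein encoded beside the Lce genes, followed the same order, with 527, 10799 and 2369 CPM against 1.69, 11.6 and 2.08 CPM (9.76 ± 0.78, edgeR adjusted p = 1.45e-05).

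Among the fused-type genes, filaggrin was at 44.5, 2729 and 269 CPM in granular-gated cells and at 0.846, 3.32 and 0 CPM in spinous-gated cells (log2 fold change 9.88 ± 1.03, edgeR adjusted p = 8.11e-05). Filaggrin 2, which shares its build with filaggrin, had the largest change of all members called, from 0, 1.66 and 0.833 CPM to 60.2, 4601 and 585 CPM (10.73 ± 0.97, edgeR adjusted p = 3.03e-05). Hornerin rose from 0, 0 and 0.417 CPM to 26.9, 730 and 175 CPM (9.72 ± 0.85, edgeR adjusted p = 2.63e-05). All 3 genes were highest at 6 months and lowest at P38 among granular-gated cells. Repetin was at 0, 0 and 2.0 CPM in granular-gated cells, and trichohyalin at 2.78, 5.09 and 11.01 CPM, so neither passed the test (edgeR adjusted p = 0.479 and 0.161). Cornulin and Tchhl1 had 0 UMIs in granular-gated cells of every library, which at 3 counts allows up to 2.78, 3.05 and 3.00 CPM.

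Among the late cornified envelope genes Lce1m had 0 UMIs in granular-gated cells of P38, 17224 CPM at 6 months and 2372 CPM at 12 months, against 0.846, 19.9 and 0.417 CPM in spinous-gated cells. Its log2 fold change was 9.93 ± 1.62 (edgeR adjusted p = 0.00246) and it was higher in 2 of 3 libraries. Lce1l was at 2.78, 364 and 87.1 CPM, from 0, 3.32 and 0 CPM (7.69 ± 0.91, edgeR adjusted p = 0.00025). The other 7 Lce genes called ranged from Lce1a1 (4.82 on the log2 scale) to Lce1f (8.34), and all 9 lost the call under the stricter gate and without the 6 months library.

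The small proline-rich genes behaved differently from the late ones. Sprr1a was at 4651, 3726 and 939 CPM in granular-gated cells and already at 3027, 1237 and 149 CPM in spinous-gated cells, and its difference did not pass the test. Sprr1b was at 1311, 119 and 75.1 CPM against 590, 64.8 and 10.8 CPM. Sprr2d, Sprr2h and Sprr2i were called higher, but their UMIs came mostly from P38, where granular-gated cells held 285 CPM of Sprr2d, 89.9 of Sprr2h and 143 of Sprr2i. At P38 a single cell held 50.5% of the Sprr2d UMIs and 98.7% of the Sprr2i UMIs, and none of the 3 genes passed without the P38 library. Involucrin, the envelope scaffold, was at 99.2, 111 and 30.0 CPM against 11.8, 13.3 and 0.417 CPM (3.62 ± 0.49, edgeR adjusted p = 0.000657).

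Among the S100a genes the 3 calls were all lower. S100a6 (calcyclin) was at 146, 37.6 and 49.0 CPM in granular-gated cells against 531, 311 and 227 CPM in spinous-gated cells (−2.18 ± 0.25, edgeR adjusted p = 0.00016). S100a13 was at 12.1, 14.2 and 15.01 CPM against 51.6, 76.4 and 59.98 CPM (−2.05 ± 0.27, edgeR adjusted p = 0.000599). Both were lower in 3 of 3 libraries with no overlap between the classes. S100a11, a partner of annexins at the membrane of keratinocytes, was at 2020, 693 and 1322 CPM against 1859, 1232 and 1465 CPM and was not called. S100a14 (909, 1006 and 856 CPM against 940, 844 and 736 CPM) and S100a16 (520, 389 and 526 against 460, 437 and 363 CPM) were not called either. Of the genes with few UMIs S100a9 was at 5.56, 1.02 and 2.0 CPM against 0 in every library (edgeR adjusted p = 0.0563) and S100a3 at 1.85, 85.5 and 7.01 CPM against 5.07, 6.64 and 0.417 CPM (edgeR adjusted p = 0.0846), and neither passed.

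Of these 21 calls 7 (Lor, Crct1, Flg, Flg2, Hrnr, S100a6 and S100a13) held under all 12 alternatives run. With a gate 1.5 times as strict, which left 21, 15 and 17 granular-gated cells, 7 members were called higher, and 10 were when the library term was dropped.

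**Figure D2:**
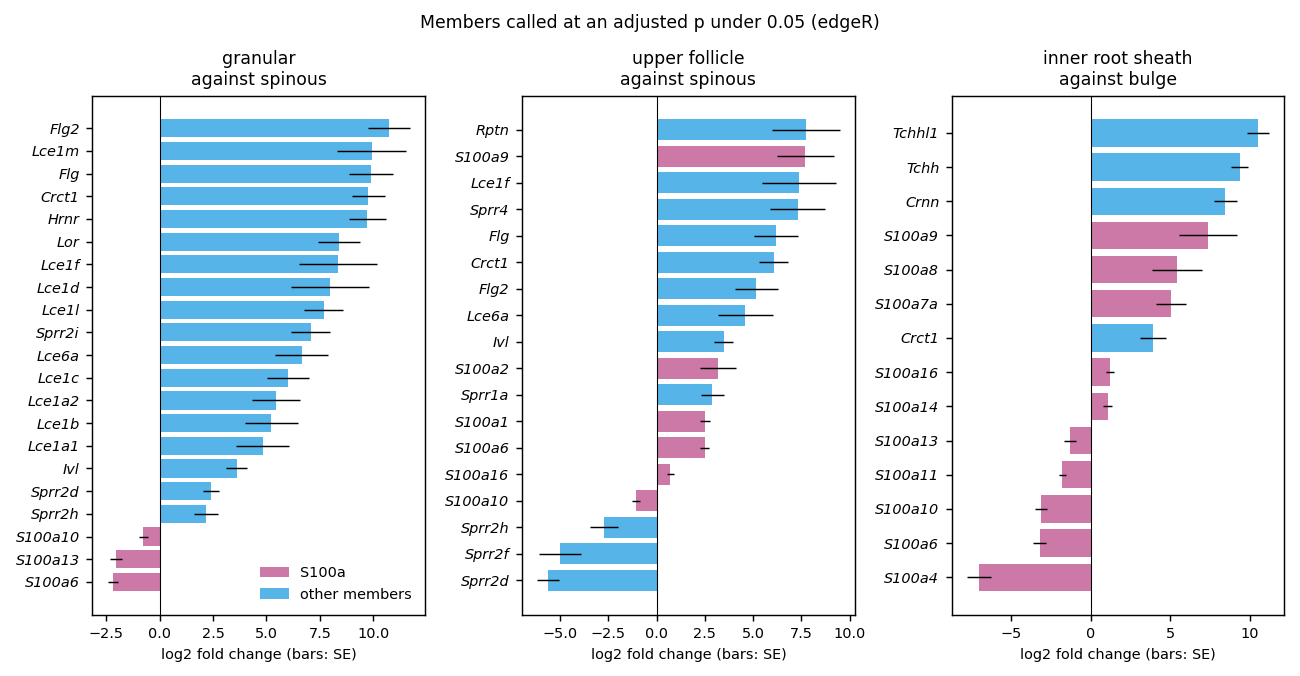
Log2 fold change (x axis) of the members called at an adjusted p under 0.05 by edgeR's quasi-likelihood test in 3 class comparisons, with a line of 1 SE on each bar and the S100a genes in pink. In granular against spinous the Lce genes lie at 4.82 to 9.93 and Flg2 at 10.73 while the 3 S100a genes lie below 0, and the inner root sheath panel has 1 sum without a replicate.

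Other genes of cornification, from a list with no member in it, moved with the members. Of its 28 genes 20 were higher in granular-gated than in spinous-gated cells and 0 were lower (median log2 fold change 2.30, against −0.05 over all genes). Cornifelin (Cnfn), an envelope protein, was at 211, 1598 and 426 CPM against 0.846, 0 and 0.417 CPM (10.26 ± 0.99, edgeR adjusted p = 4.51e-05). The desquamation protease Klk7 was at 228, 2433 and 484 CPM against 12.7, 19.9 and 8.75 CPM (6.04 ± 0.65, edgeR adjusted p = 0.000113). Transglutaminase 1 (Tgm1), which cross-links the envelope, was at 38.9, 238 and 47.0 CPM against 5.92, 0 and 0.417 CPM (5.65 ± 0.92, edgeR adjusted p = 0.00243). Each of these was highest at 6 months, as the late members were. Of 14 transcription factors known to act on the complex, Cebpa, Grhl1 and Prdm1 were higher, Trp63 was lower and 10 did not pass (median 0.38).

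The late members were not spread over the granular-gated cells. A cut of 10000 CPM of Lor, chosen after the values had been seen, was reached by 1 of 48, 14 of 48 and 5 of 54 cells. These cells held 97.2, 99.9 and 99.0% of the class's Lor UMIs while holding 3.72, 46.4 and 8.43% of all its UMIs. The median granular-gated cell had 0, 55.8 and 0 CPM of Lor. The level of Lor inside the cells past the cut was 27965, 120649 and 82510 CPM, and 30.8, 108 and 73.2 CPM in the rest.

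The other late genes sat in the same cells. They held 99.5, 98.0 and 96.6% of the Crct1 UMIs, 95.4, 97.5 and 95.4% of Flg2, and 96.6, 93.4 and 88.0% of Hrnr. For Flg the shares were 100, 96.6 and 59.9%, and for Lce1m, which had no UMI at P38, they were 99.98% in the 6-month library and 98.9% in the 12-month one. The early envelope genes had a larger part of their UMIs in the rest of the class, but were not evenly spread. For Sprr1a the shares were 10.6, 43.5 and 55.7%, for Sprr1b 6.71, 16.2 and 25.3%, and for Ivl 56.1, 55.05 and 6.67%. Sprr1a was at 13296, 3494 and 6196 CPM in the cells past the cut and at 4317, 3927 and 455 CPM in the rest. Sprr1b was at 2370, 41.7 and 226 CPM against 1271, 186 and 61.2 CPM. Ivl was at 1497, 132 and 23.7 CPM against 45.2, 93.0 and 30.6 CPM. S100a11 was lower in the cells past the cut, at 175, 35.1 and 23.7 CPM, than in the rest, at 2091, 1263 and 1442 CPM. S100a14 did not separate in this way, with 1422, 1236 and 1080 CPM in the cells past the cut and 889, 807 and 835 CPM in the rest. These values describe cells picked by Lor and are given with no test.

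**Figure D3:**
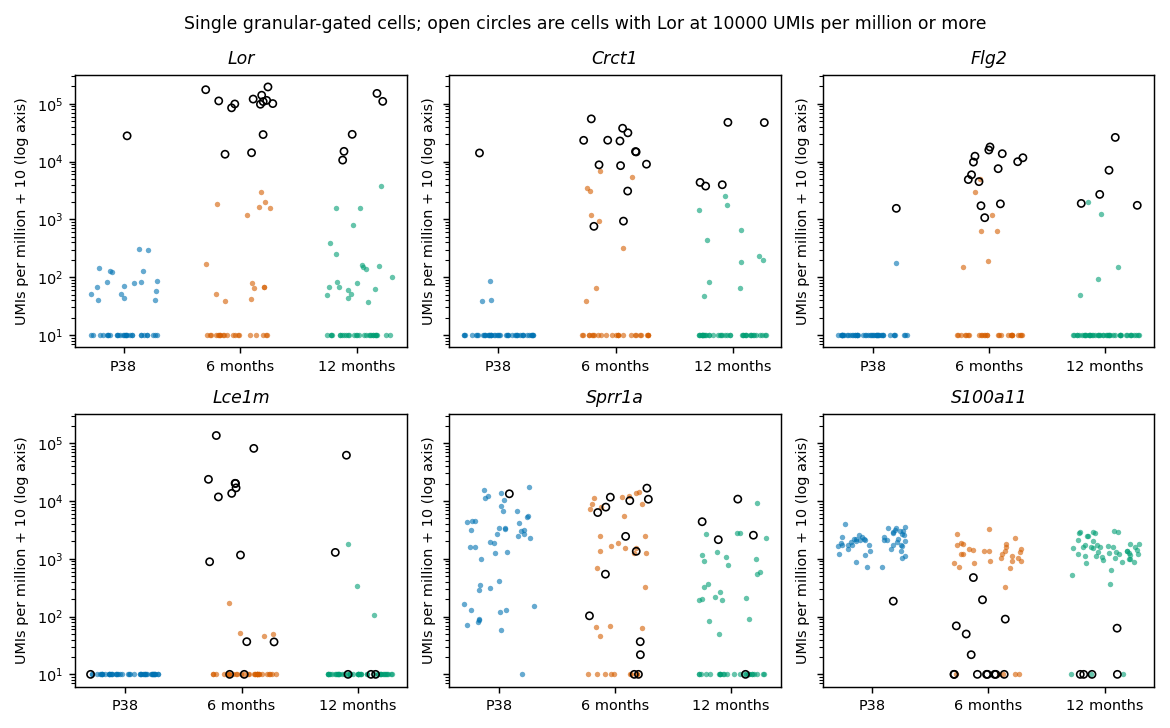
CPM + 10 per granular-gated cell (y axis, log scale) of Lor and other members in the 3 libraries, each point a cell and open circles the cells with Lor at 10000 CPM or more. A few cells lie at or above 10000 CPM of Lor, 1 of 48, 14 of 48 and 5 of 54 in the order of age, and the median cell lies at 0, 55.8 and 0 CPM.

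Single cells weighed in the class level. In each library the cell with most UMIs of members outside the S100a family held 29.9, 28.0 and 76.4% of the class's UMIs of these members. Without it their share of class UMIs was 0.612, 7.65 and 0.345%, so that P38 lay above 12 months. The 7 calls named above held without that cell.

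Spinous-gated cells were compared with basal-gated cells to see which members start early. The small proline-rich genes were the ones that rose. Of the 41 members 5 were higher, all Sprr genes (3.80% of all genes), and 4 were lower, all S100a genes (5.72%). Sprr1a was at 3027, 1237 and 149 CPM in spinous-gated and at 165, 124 and 22.2 CPM in basal-gated cells (3.60 ± 0.61, edgeR adjusted p = 0.00175). Sprr1b was at 590, 64.8 and 10.8 CPM against 10.8, 3.97 and 0.162 CPM (5.19 ± 0.74, edgeR adjusted p = 0.000532). Both were highest at P38 and lowest at 12 months in the spinous gate and were above basal in 3 of 3 libraries.

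The other 3 calls, Sprr2d, Sprr2f and Sprr2h, rested on P38. They were at 64.3, 48.2 and 27.1 CPM in spinous-gated cells of P38 and at 0 UMIs in those of 6 and 12 months, and 1 cell held 91.2% of the Sprr2f UMIs. None of the 3 was called without the P38 library, and for Sprr2h no UMI was then left in either class. Of the 4 S100a genes called lower S100a6 had the largest change, from 3161, 2025 and 2325 CPM in basal-gated to 531, 311 and 227 CPM in spinous-gated cells (−2.83 ± 0.24, edgeR adjusted p = 1e-05). S100a10, the light chain of annexin A2, was at 797, 638 and 633 CPM against 1842, 1152 and 1242 CPM (−0.96 ± 0.21, edgeR adjusted p = 0.01), and S100a1 and S100a13 were also lower. Lor, Ivl, Flg, Flg2, Hrnr, Crct1, Tchh and the Lce genes did not pass here. S100a6 held under all 12 alternatives and was the one call that did.

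**Figure D4:**
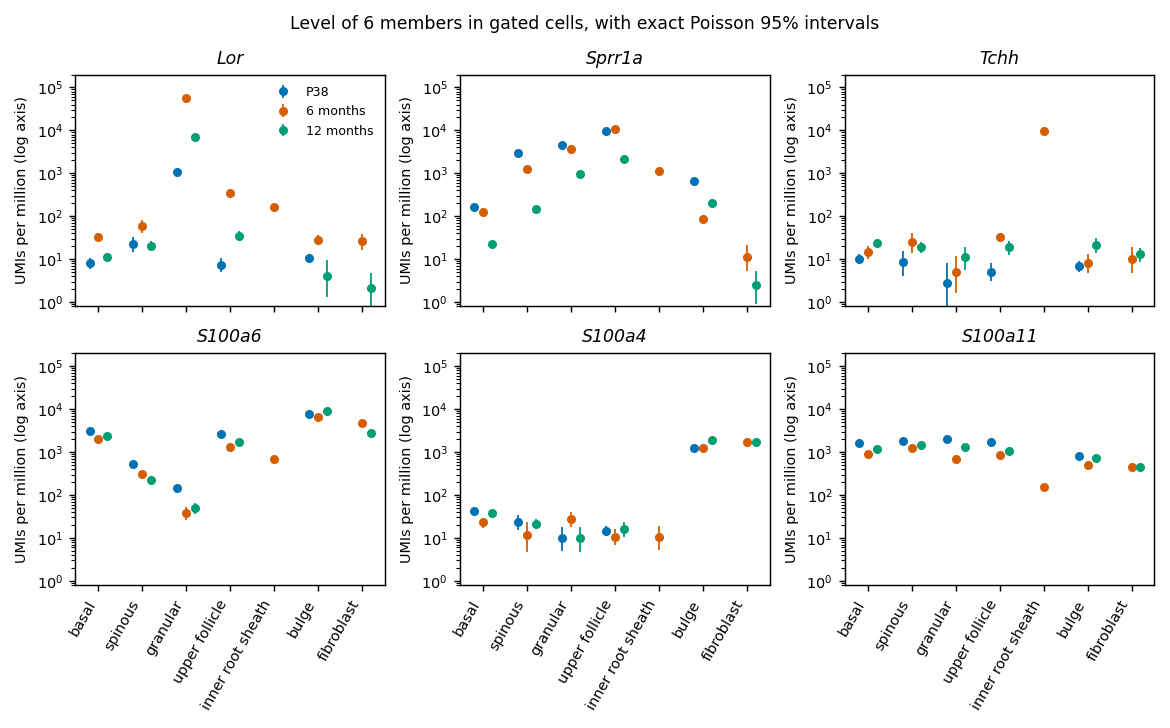
CPM (y axis, log scale) of single members in the gated classes (x axis), 1 point per library with an exact Poisson 95% interval. Of the 6 members shown, Lor is highest in the granular gate, Sprr1a in the upper follicle (9645, 10861 and 2187 CPM), Tchh in the inner root sheath and S100a6 in the bulge, S100a4 is high in bulge and fibroblasts, and S100a11 is measured in every class.

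The upper follicle is the second cornifying epithelium of these libraries, lining the canal through which the hair leaves the skin. Against the bulge, where the stem cells of the follicle lie, Sprr1a, Sprr1b, Ivl, Crct1 and S100a14 were higher in upper-follicle-gated cells and S100a4 and S100a6 were lower. Of 41 members 18 were higher (16.1% of all genes) and 4 were lower (18.1%), the 4 being S100a genes. Sprr1a was at 9645, 10861 and 2187 CPM in the upper follicle against 654, 88.3 and 201 CPM in the bulge (4.65 ± 0.65, edgeR adjusted p = 0.000104). It was found in 97.5, 91.9 and 73.3% of upper-follicle-gated cells, beside 5.66% of T-cell-gated cells at 6 months and 5.13% at 12 months with 4120 and 4390 UMIs in the median cell. Unlike Lor in the granular gate it was spread over the class, with 6387, 4774 and 848 CPM in the median cell.

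Ivl was at 59.1, 109 and 39.4 CPM against 4.75, 8.12 and 0.819 CPM (4.35 ± 0.47, edgeR adjusted p = 1.51e-05). Crct1 was at 85.3, 1003 and 98.4 CPM against 3.96, 10.0 and 1.64 CPM (5.71 ± 0.66, edgeR adjusted p = 2.46e-05). Both were higher in 3 of 3 libraries, and Crct1 was highest at 6 months here as in the granular gate. For Crct1 1 upper-follicle-gated cell held 22.6, 44.7 and 47.1% of the UMIs, and the median cell had 0 CPM in each library. Filaggrin had 5.35, 391 and 1.27 CPM against 0, 1.43 and 0 CPM (7.91 ± 1.13, edgeR adjusted p = 0.000133), which rested on the 6 months library, where 1 cell held 89.2% of its UMIs. Loricrin did not pass, at 7.49, 353 and 34.9 CPM against 10.6, 28.6 and 4.10 CPM (2.27 ± 0.85, edgeR adjusted p = 0.0526), and 1 cell held 76.3% of its UMIs at 6 months.

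Repetin, Sprr4 and S100a9 had few UMIs in the upper follicle. Repetin was at 1.87, 26.8 and 6.98 CPM with 0 UMIs in the bulge of every library. Sprr4 was at 6.42, 20.1 and 2.54 CPM, and S100a9, a calgranulin known from neutrophils and stressed keratinocytes, at 5.08, 2.57 and 15.2 CPM with 0 UMIs in the bulge. A single cell held 50 of the 52 repetin UMIs of 6 months. All 3 passed edgeR's test against the bulge and against spinous-gated cells, but repetin and Sprr4 lost both calls with DESeq2, under the stricter gate and without 6 months, and S100a9 lost the one against spinous-gated cells under the stricter gate and without 12 months. Against granular-gated cells, where Sprr4 had 0 UMIs in every library, Sprr4 was called higher in the upper follicle and kept the call in 8 of 12 alternatives, and repetin kept its call in 4 of 12.

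Spinous-gated cells stand for the interfollicular layer that comes before the granular one. Against them 14 of 41 members were higher in the upper follicle (11.1% of all genes) and 4 were lower (8.07%). Sprr1a was 2.89 ± 0.59 higher on the log2 scale (edgeR adjusted p = 0.00362), Ivl 3.48 ± 0.49 (0.000245 in the same edgeR test) and Crct1 6.06 ± 0.74 (7.95e-05, edgeR). S100a6 was at 2641, 1297 and 1676 CPM against 531, 311 and 227 CPM (2.48 ± 0.24, edgeR adjusted p = 1.31e-05). Sprr2d, Sprr2f and Sprr2h were lower through P38 alone, and without that library Sprr2h had 2 UMIs left in the upper follicle and 0 in spinous-gated cells. The calls of Ivl, Crct1, S100a1 and S100a6 held under all 12 alternatives.

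Granular-gated and upper-follicle-gated cells were compared in an analysis added after the levels had been seen. The late genes were higher in granular-gated cells and S100a genes in the upper follicle, with 19 of 41 members higher (10.2% of all genes) and 6 lower (10.7%). Most Lce genes tested passed the filter on low counts through granular-gated cells, so the count of members higher is partly set by the filter here too. Lor was 7.42 ± 0.90 higher on the log2 scale (edgeR adjusted p = 7.53e-05), Hrnr 8.48 ± 0.71 (edgeR adjusted p = 4.02e-06) and Lce1m 9.62 ± 1.56 (edgeR adjusted p = 0.000732). Ivl did not differ beyond its spread (0.14 ± 0.38, edgeR adjusted p = 0.83). S100a6 was 4.67 lower in granular-gated cells (−4.67 ± 0.27, edgeR adjusted p = 1.76e-07), and S100a1 was at 2.78, 5.09 and 5.004 CPM against 54.6, 64.3 and 31.1 CPM. From the cornification list, Cst6, a protease inhibitor of the cornified layer, was at 719, 1634 and 1237 CPM in granular-gated and 39410, 96135 and 35522 CPM in upper-follicle-gated cells (−5.34 ± 0.55, edgeR adjusted p = 2.1e-05), while 18 of the 28 list genes were higher in granular-gated cells.

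The inner root sheath moulds the growing hair and cornifies with trichohyalin in place of loricrin. The comparison with the bulge had inner-root-sheath-gated cells from 6 months alone, since P38 had none and 12 months 6. Its 1 sum has no replicate, and the fit assumes that it varies like the sums of the other classes, so the SE and p below hold only under that assumption. In this fit Tchh, Tchhl1, Crnn and Crct1 were called higher than the bulge. The S100a genes went both ways. S100a9 (log2 fold change 7.37), S100a8 (5.42), S100a7a (5.05), S100a16 (1.20) and S100a14 (1.05) were called higher. S100a4, S100a6, S100a10, S100a11 and S100a13 were called lower. Of 41 members 9 were called higher (10.8% of all genes) and 5 lower (13.4%). Trichohyalin was at 9886 CPM (exact Poisson 95% interval 9696 to 10078) against 6.81, 8.12 and 21.3 CPM in the bulge (9.35 ± 0.53, edgeR adjusted p = 5.82e-07). Tchhl1 was at 671 CPM against 0.158, 0.477 and 0 CPM, and Crnn at 307 CPM against 0.475, 0.955 and 0.819 CPM. Both of these genes passed the filter on low counts through the inner root sheath sum, so their calls are partly set by the filter.

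These levels rested on few cells. A single cell held 68.9% of the Tchh UMIs, 92.5% of the Tchhl1 UMIs and 87.6% of the Crnn UMIs of the class. The 4 S100a9 UMIs all came from 1 cell. For S100a8 1 cell held 90.9% of 11 UMIs, and for S100a7a 85.2% of 54. Tchh was found in 60 of 156 inner-root-sheath-gated cells (38.5%), beside 7.55% of T-cell-gated cells of 6 months, and Tchhl1 in 5. The 6 cells of 12 months held 181 Tchh UMIs and 4 Crnn UMIs, or 25269 CPM of Tchh. Lor was at 161 CPM in inner-root-sheath-gated cells and at 34.9 CPM in T-cell-gated cells of the same library and did not pass. Of the calls 8 of 14 held under all 11 alternatives that could be fitted.

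The S100a genes carried the complex in the bulge. S100a6 was at 7751, 6558 and 9086 CPM there, which was above the basal gate (3161, 2025 and 2325 CPM), the upper follicle (2641, 1297 and 1676 CPM) and the granular gate. S100a4 (metastasin, a protein of motile cells) was at 1222, 1247 and 1952 CPM in the bulge and at 14.7, 10.8 and 15.9 CPM in the upper follicle (−6.46 ± 0.42 for upper follicle against bulge, edgeR adjusted p = 2.45e-07). The 3 bulge values were close to each other and far from all upper follicle values. S100a4 was found in 80.2, 70.1 and 66.3% of bulge-gated cells, with 518, 385 and 585 CPM in the median cell.

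S100a4 and S100a6 were not particular to the follicle. Fibroblast-gated cells held 1750 and 1763 CPM of S100a4 at 6 and 12 months, and T-cell-gated cells 2997 and 4408 CPM. The fibroblast and T cell marker scores of bulge-gated cells each had a median of 0 in every library. Cells that passed a fibroblast or T cell gate were left out of the bulge gate, so low scores are partly built in. The part of free RNA in the bulge level was not tested. S100a1, which is known from muscle, was higher in the bulge (102, 235 and 118 CPM) than in the upper follicle (54.6, 64.3 and 31.1 CPM; log2 fold change −1.27 ± 0.22 for upper follicle against bulge, edgeR adjusted p = 0.000478). S100a11, S100a14 and S100a16 were higher in the upper follicle, by 1.09 ± 0.14, 1.29 ± 0.19 and 1.25 ± 0.17 on the log2 scale. Over the 16 sums S100a14 stayed within 327 to 1153 CPM and S100a16 within 259 to 865 CPM.

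Over the 16 class and library sums, which share libraries and depth, the members fell into groups by the Pearson correlation of log2(CPM + 1), given as a description. Lor was most like Flg2 (0.96), Flg most like Flg2 (0.98) and Crct1 most like Flg (0.94). Sprr1a was most like Ivl (0.84), Crnn most like Tchhl1 (0.99) and S100a6 most like S100a1 (0.85). S100a6 was least like Lor (−0.83). The sums of the inner root sheath gate weigh in the Crnn value as the only ones where either gene was abundant.

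Between ages there was 1 library each, so no test could be made, and the values describe these 3 libraries. Both comparisons used the same P38 library. In granular-gated cells 27 of the 32 members with at least 10 UMIs in the 2 libraries together differed 2-fold or more between 6 months and P38, 17 higher and 10 lower, beside 25.9% of all genes. Between 12 months and P38 this was 22 of 29, 13 higher and 9 lower, beside 17.3% of all genes. Here and in the other classes a member could enter through 1 library alone, which makes a large ratio nearly certain. These counts of members are therefore partly set by the limit on UMIs. Late envelope genes were among the higher ones. At P38 1 cell held 97.2% of the Lor and 95.4% of the Flg2 UMIs of the class, and at 12 months 1 cell held 81.6% and 45.8%. Lor had a log2 ratio of 5.71 at 6 months (exact 95% interval 5.63 to 5.80, counting error only) and 2.72 at 12 months (2.63 to 2.81), and Flg2 had 6.24 and 3.27. With a gate 1.5 times as strict Lor had 1.28 and −3.27 and Flg2 2.72 and −0.47, so both lay below P38 at 12 months. Without the cell with most envelope UMIs in each library, which left 32 Lor UMIs at P38, Lor had 10.49 and 5.42. Lce1m and Lce1a2 had 0 UMIs at P38, and at 6 months 16927 and 110 UMIs.

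Sprr genes were among the lower ones. Sprr1b had log2 ratios of −3.46 and −4.12 to P38 in granular-gated cells, Sprr2d −6.32 and −5.69, and Sprr2i went from 154 UMIs at P38 to 0 at both later ages. Sprr1a had −0.32 at 6 months and −2.31 at 12 months. Beside these ratios, the number of cells past the Lor cut was 1, 14 and 5, a count that is set by Lor itself. The non-member granular markers Cdsn and Asprv1 moved in the same order as the late genes. The median score of the whole granular panel did not, at 0.762, 1.06 and 0.692, with 12 months below P38. The part of these in the ratios was not tested. With the stricter gate 13 of 20 members differed 2-fold at 6 months, 4 higher and 9 lower, beside 23.9% of all genes, and 15 of 20 at 12 months, 1 higher and 14 lower, beside 29.3%.

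In spinous-gated cells 9 of 19 members differed 2-fold at 6 months (3 higher, 6 lower, 14.8% of all genes) and 9 of 17 at 12 months (1 higher, 8 lower, 18.7%). Sprr1b had −3.17 and −5.74 and Sprr1a −1.29 and −4.34. Sprr2d and Sprr2f had 76 and 57 UMIs at P38 and 0 at both later ages.

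In upper-follicle-gated cells 16 of 27 members differed 2-fold at 6 months (11 higher, 5 lower, 21.1% of all genes) and 12 of 22 at 12 months (5 higher, 7 lower, 29.9%). Flg2 had a log2 ratio of 7.37 at 6 months, Lce1f 6.60 and Lor 5.54, and Lce6a had 0 UMIs at P38 and 53 at 6 months. A single cell of 6 months held 72.8% of the Flg2, 100% of the Lce1f and 76.3% of the Lor UMIs. Without the cell with most envelope UMIs in each library Flg2 had 6.37 and Lor 3.54, and no Lce1f UMI was left at 6 months. At 12 months Lor had 2.21, Sprr1a −2.14 and Sprr1b −1.99. Sprr1a was lower at 12 months than at P38 in the spinous, granular and upper follicle gates.

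In bulge-gated cells 7 of 17 members differed 2-fold at 6 months (4 higher, 3 lower, 19.4% of all genes) and 7 of 16 at 12 months (1 higher, 6 lower, 26.3%). Sprr1a had −2.88 and −1.70 and Lor 1.43 and −1.25. S100a1 had 1.21 at 6 months, and Tchh 1.66 at 12 months with 69 UMIs in both libraries together. The abundant S100a genes stayed closer together, with −0.24 and 0.23 for S100a6 and 0.03 and 0.68 for S100a4. Lor was at 34.9 CPM in T-cell-gated cells of 6 months and had 0 UMIs in those of 12 months. There 3 counts are 16.8 CPM, so a level like the 4.10 CPM of the bulge could not be seen. No T cell passed its gate at P38, and the part of free RNA in the bulge ratios of Lor was not tested.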

How the data were processed

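The values deposited by the authors are unnormalized UMI counts of each gene in each barcode, made by mapping 3′ reads to mm10 with Cell Ranger (6.1.2 per the labels, 6.1.2 at P38 and 6.0.0 at the later ages per the file headers, another version in the methods). The sort described in the methods sets the ratio of epidermal to follicle cells, and the P38 cells were sorted for the green label, so numbers of cells per class are no result. Members and lists were chosen with earlier results of these data known.

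The published cell filter was applied, over 200 but below 5000 genes with less than 15% of UMIs from mitochondria. A marker score was the mean over a panel of log(1 + UMIs per 10000), and a gate asked for at least 3 detected markers and a score of 0.5 (granular), 2.0 (spinous, upper follicle), 1.5 (inner root sheath, bulge) or 1.75 (basal). Spinous-gated cells also had a granular score under 0.4. Bulge-gated and basal-gated cells had spinous and upper follicle scores under 1.0. The spinous score led the upper follicle score by 0.5 in the spinous and granular gates, and the reverse held in the upper follicle gate. Cells that passed more than 1 gate were left out. The classes compared were thus cut apart on these markers. The thresholds were set after the score distributions had been seen. Scrublet (scanpy 1.11.5) called 6, 0 and 4 cells doublets, so its threshold did not work and no doublets were removed. In an alternative the 40, 133 and 141 cells with the highest scores were left out. Free RNA was not subtracted.

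UMIs were summed per class and library where at least 10 cells were gated. The 16 sums were fitted in edgeR 4.0.16 (R 4.3.3) with the quasi-likelihood test, TMM normalization and class and library as terms, which left 8 residual degrees of freedom. The 41 genes used for gating were left out of the tests, and 11584 genes passed the filter on low counts. The libraries served as replicates and differ in age, sex and hair cycle stage, so that the spread between them includes these. The fit was tested on simulated data.

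CPM are UMIs per 1000000 UMIs of the class and carry exact Poisson 95% intervals. Age ratios had 0.5 counts added and needed 10 UMIs in both libraries together. Intervals and the floor of 3 counts cover counting error only. Levels were not scaled to transcript length and are not compared between genes. Shares of T-cell-gated cells with a UMI serve as the level of free RNA. Members are named in the text where they reached 50 CPM in a class in 2 libraries, had 1 of the 5 largest changes called in each direction of a class comparison or 1 of the 3 largest age ratios past 2-fold with 50 UMIs, or belong to the genes named singly. Alternatives were DESeq2 1.42.0, no filter on low counts, no library term, a gate 1.5 times as strict, cells with at least 1000 genes, removal of doublet candidates, leaving out each library, and 50 UMIs for the age ratios. Removing shared barcodes, removing the cell with most envelope UMIs and lifting the upper limit on genes were chosen after seeing the data, as was the comparison of granular with upper-follicle-gated cells.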

Additional observations from a re-analysis of the deposited data

Results flagged for a closer look

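Barcodes that the cell filter removed entered none of the main comparisons. Those removed by the upper limit on genes alone entered the alternative that lifted this limit. In the 6 months library the removed barcodes held a clear signal of the late members. At 6 months 22 of the removed barcodes passed the granular gate, with a median of 69775.5 UMIs, and Lor was at 7677 CPM in them against 34.9 CPM in the kept T-cell-gated cells of the same library. Sprr1a was at 2761 CPM in these 22 barcodes. The other libraries did not show this signal for Lor. It was at 14.1 CPM in 12 removed granular-gated barcodes of P38 and at 8.56 CPM in 9 of 12 months. Another 96 removed barcodes of 6 months passed the inner root sheath gate, with a median of 28795 UMIs and 7667 CPM of Tchh. Whether these barcodes are single large cells or several cells was not tested. With the upper limit on genes lifted, the members made up 4.68% of granular UMIs at 6 months instead of 9.95%.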

How the results depend on the processing

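Of the changes of single members named in the text, 546 comparisons with an alternative kept direction and call, 69 lost the call and 2 fitted values turned sign. The latter were Sprr2h without P38, where 0 UMIs stood against 0 in spinous against basal and 2 against 0 in upper follicle against spinous, so that neither fitted value has a direction. Leaving out each library gave it −0.14 to 6.64 and −3.34 to 2.90 in these comparisons. Leaving out each library gave 7 to 17 members higher in granular against spinous, 2 to 5 higher and 2 to 4 lower in spinous against basal, 10 to 16 higher in upper follicle against bulge, 7 to 11 higher and 1 to 3 lower in upper follicle against spinous, 7 to 10 higher in inner root sheath against bulge, and 9 to 15 higher and 3 to 4 lower in granular against upper follicle. The inner root sheath could not be fitted without 6 months.

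The libraries carry no replicate numbers beyond 1 per age, so the library term is the block. With no replicate block 10 members were higher in granular against spinous, 0 in spinous against basal, 11 in upper follicle against bulge, 7 (and 0 lower) in upper follicle against spinous and 12 in granular against upper follicle. The stricter gate gave 7, 11 and 7 higher in granular against spinous, upper follicle against bulge and upper follicle against spinous, and 11 higher and 2 lower in granular against upper follicle. DESeq2 gave 1 lower in upper follicle against spinous, and without the cell with most envelope UMIs 5 were higher in inner root sheath against bulge.

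Under the stricter gate the members' share of UMIs was 1.94, 1.65 and 0.402% in granular-gated cells (P38, then 6 and 12 months), 2.12% (P38) and 0.920% (12 months) in the upper follicle and 2.35% in the inner root sheath. Without the cell with most envelope UMIs it was 1.04, 7.91 and 0.669% in granular-gated cells, 1.67, 1.58 and 0.702% in the upper follicle and 0.697% in the inner root sheath. With no upper limit on genes it was 1.16, 4.68 and 1.49%, then 1.68% (P38) and 1.55% (6 months), then 1.27% for these classes. Cells with at least 1000 genes gave 10.0% (granular) and 1.52% (inner root sheath) at 6 months, removing shared barcodes 7.93% (granular, 6 months) and removing doublet candidates 1.71% (upper follicle, P38). Members past 2-fold between ages numbered 13 (granular, 6 months), 5 (spinous, 12 months), 3 and 4 (bulge, 6 and 12 months) under the stricter gate, and 14 (granular, 12 months), 4 (upper follicle, 12 months), 4 and 4 (bulge) with at least 50 UMIs. The causes were not tested. Granular sums of 48 to 54 cells and 1 library per age limit the precision.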
